A study of Oryza sativa with 6 samples.

Results

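Gibberellins are growth hormones of plants, and rice keeps their level through a chain of enzymes that make them and enzymes that inactivate them. GA 20-oxidases (GA20ox) carry out the late oxidation steps, GA 3-oxidases (GA3ox) make the bioactive hormone, and GA 2-oxidases (GA2ox) inactivate the hormone or its precursors. The receptor GID1 binds bioactive gibberellin and then binds SLR1, the DELLA repressor of rice, which is thereby marked for breakdown. As general background, bioactive gibberellin is known to lower transcripts of 20-oxidase and 3-oxidase genes and to raise those of several 2-oxidase genes. The hormone itself was not measured here. The 9 genes described are GA20ox1, GA20ox2 (SD1) and GA3ox2 of synthesis, GA2ox1, GA2ox3, GA2ox6 and GA2ox9 of inactivation, and SLR1 and GID1 of signalling. They were chosen by gene identifier, by a rule that names no measured value, out of 91180 features in the deposited tables, and all 9 were found.

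RNA was sequenced from flag leaves of OsRUS1-OX and WT rice (cultivar ZH-11) at the heading stage, with 3 libraries of each. OsRUS1-OX is a single transgenic line of ZH-11 that overexpresses an OsRUS1-GFP fusion, and the promoter that drives it is not given in the sources used here. WT is untransformed ZH-11. Field-grown leaves were taken at 11 h in sunlight, when OsRUS1-OX leaves were rolled and WT leaves were flat, so genotype and leaf state cannot be told apart. Each library pooled leaves of 3 plants and the collection was repeated for each replicate. The read counts compared below are relative to each library, and in whole leaves fewer cells of a type and less RNA per cell cannot be told apart.

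Reads on genes ranged from 11918655 to 13532579 in OsRUS1-OX and from 8759812 to 11744177 in WT libraries, and 19694 features had enough reads to be tested. The feature OS04G0290800, described in the study's tables as a vitamin B6 homoeostasis gene, had 7313, 3515 and 7577 reads in OsRUS1-OX against 57, 120 and 102 in WT libraries. All 4 leaf markers were detected, with summed FPKM of 26222 to 27868 in OsRUS1-OX and 23297 to 29573 in WT. The sum was carried by OS11G0707000, which was not called, while the other 3 were called in both directions. OS01G0600900 (CAB2R) and OS07G0147500 (PsbR) were higher in OsRUS1-OX, by log2 fold changes of 1.03 and 2.51, and OS12G0274700 was lower, at -1.08. Of 7 markers of other organs, 2 had no read in any library, and their summed FPKM was 49.2 to 55.9 in OsRUS1-OX and 31.7 to 38.9 in WT. One of these 7, OS06G0712700 (MADS16, a floral homeotic gene), was called higher in OsRUS1-OX. The root marker OS02G0745100 had the most transcript of the 7 and was not called. Its FPKM was 30.8 to 33.2 in OsRUS1-OX and 16.5 to 27.8 in WT. The seed marker OS01G0762500, with a log2 fold change of -0.70, was not called either. The part of these marker values in the results below was not tested.

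Among the 9 genes, GA2ox9 and GID1 transcripts were higher in OsRUS1-OX, 10.5-fold for GA2ox9 and by a smaller step for GID1, while no synthesis gene passed the test. GA2ox9 was called in all 6 fits that left out a library, and GID1 in only 2 of them. Of the 9 genes, 6 had enough reads to be tested, 2 were called higher, none was called lower and 4 were not called. GA2ox9 passed the filter on low counts only through its OsRUS1-OX libraries (60, 61 and 71 reads, against 1, 4 and 9 in WT). The make-up of the 6 tested genes and their median thus depend on that filter. With no filter, edgeR called 2 of the 9 genes higher and none lower. A feature was called when its edgeR quasi-likelihood p, adjusted over all tested features by the Benjamini-Hochberg method, was under 0.05. At an unadjusted p under 0.05, edgeR and limma had 0 of the 6 tested genes lower. GA2ox6, which the filter on low counts left out, was lower at an unadjusted p under 0.05 in edgeR without that filter and in DESeq2, and neither called it after adjustment. By the adjusted rule 23.6% of all tested features were called, 11.8% as higher and 11.8% as lower. The median log2 fold change was 0.39 over the 6 tested genes and -0.01 over all tested features. Values scaled by TMM, a correction for library composition, did not overlap between the genotypes for 42.4% of all tested features. Among the 6 tested genes this held for GA2ox9 and GID1. All fold changes are OsRUS1-OX over WT, and levels between genes are compared in FPKM, which divides reads by gene length and library size.

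**Figure D1:**
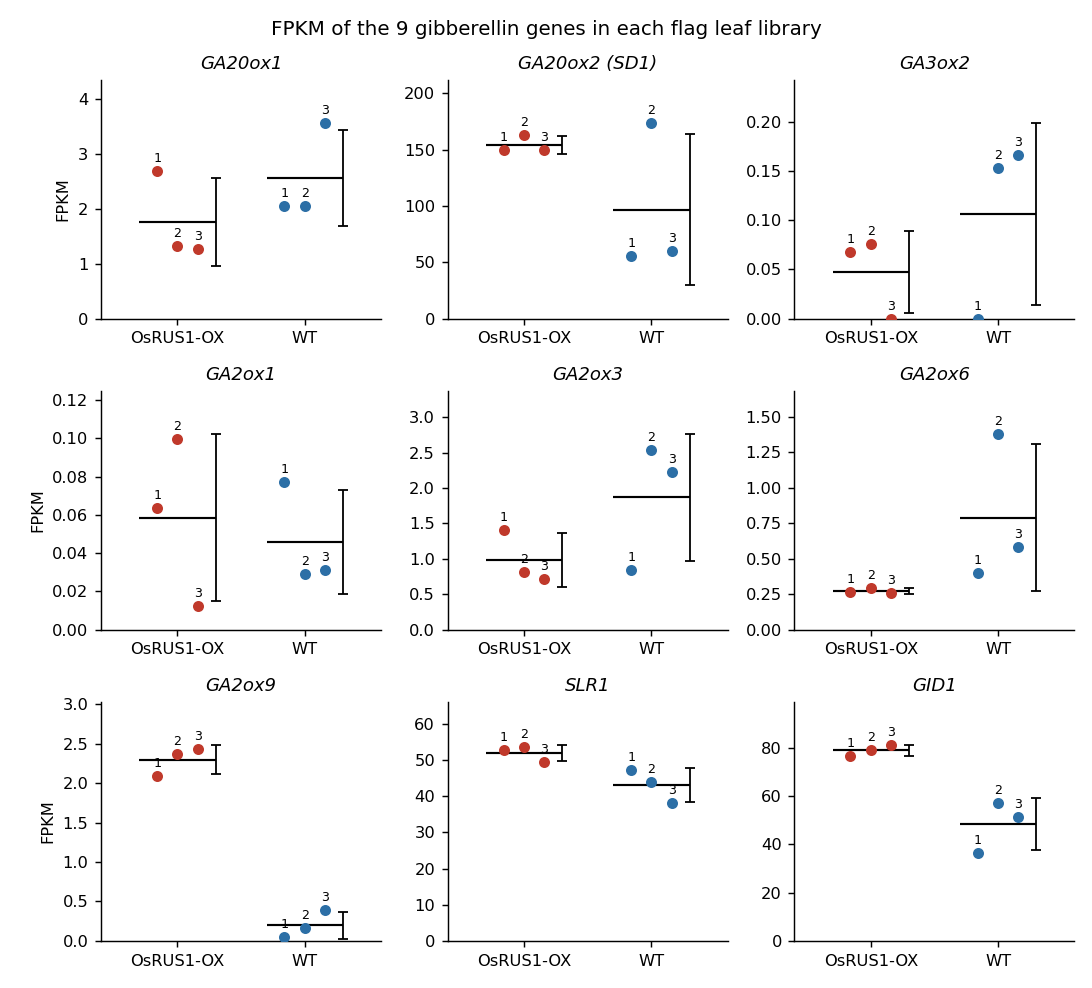
FPKM (linear axis from 0, a separate scale per gene) of the 9 genes in each library, with OsRUS1-OX in red and WT in blue. Points are libraries numbered by replicate, lines are means and bars are SD (n = 3 each). GA2ox9 and GID1 stand apart by genotype, and SD1 shows WT replicate 2 at 174 FPKM with the other WT libraries at 55.3 and 60.4.

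SD1 (GA20ox2, OS01G0883800), the 20-oxidase gene whose mutant alleles gave semi-dwarf rice, had the most transcript of the 9 genes in both genotypes. Its FPKM was 150, 163 and 150 in OsRUS1-OX libraries, against 55.3, 174 and 60.4 in WT libraries. The 3 OsRUS1-OX libraries lay close together, while WT replicate 2 lay above all of them and the other WT libraries were far below. The means were 154 ± 7.79 FPKM in OsRUS1-OX and 96.5 ± 67.1 FPKM in WT (SD, n = 3 each), from 2339 to 2433 reads per OsRUS1-OX library and 582 to 2453 per WT library. The log2 fold change was 0.59 (SE 0.42, 95% interval -0.37 to 1.56) and was not called (edgeR adjusted p = 0.353). Without WT replicate 2 it was 1.36 and was called (edgeR adjusted p = 0.00125), so that library decided the call. A pattern of this kind, with WT replicate 2 at or above the lowest OsRUS1-OX library and the other WT libraries below all 3, was found in 7.82% of the 19694 tested features. For WT replicate 1 the share was 3.76% and for WT replicate 3 it was 4.46%.

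GA20ox1 (OS03G0856700), a second 20-oxidase gene, had far less transcript than SD1. It had 52, 23 and 25 reads in OsRUS1-OX libraries, against 26, 35 and 56 reads in WT libraries. The genotypes overlapped, since OsRUS1-OX replicate 1 lay above 2 of the WT libraries in FPKM (2.68, 1.33 and 1.27 FPKM in OsRUS1-OX, against 2.04, 2.05 and 3.56 FPKM in WT). The log2 fold change was -0.59 (SE 0.37, 95% interval -1.46 to 0.27) and was not called (edgeR adjusted p = 0.296). It was -1.01 without OsRUS1-OX replicate 1 (edgeR adjusted p = 0.0929), -0.40 without OsRUS1-OX replicate 3 and -0.32 without WT replicate 3, and no alternative fit called it. The intervals of SD1 and GA20ox1 both include no change and differences of more than 1 on the log2 scale.

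GA3ox2 (OS01G0177400), which makes bioactive gibberellin in vegetative tissue of rice, was at the limit of detection. It had 1, 1 and 0 reads in OsRUS1-OX libraries and 0, 2 and 2 reads in WT libraries. A count of 0 allows up to 3 reads, which is 0.222 CPM (reads scaled to a common library total) in OsRUS1-OX replicate 3 and 0.342 CPM in WT replicate 1. No difference was detectable at this depth, and the gene was left out of the test by the filter on low counts.

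The 4 inactivation genes did not move together. GA2ox9 (OS02G0630300) is described in the study's tables as similar to Arabidopsis GA2OX8, and in rice it belongs to the group of 2-oxidases that act on precursors with the longer carbon skeleton. It had 60, 61 and 71 reads in OsRUS1-OX libraries, against 1, 4 and 9 reads in WT libraries. In FPKM these were 2.08, 2.37 and 2.43 in OsRUS1-OX and 0.0529, 0.158 and 0.386 in WT. The OsRUS1-OX libraries were close to each other and far above every WT library, although the level stayed low beside SD1, GID1 or SLR1. GA2ox9 was higher in OsRUS1-OX by a log2 fold change of 3.39 (SE 0.45, 95% interval 2.35 to 4.43, 10.5-fold, edgeR adjusted p = 0.00209). Among the 2328 features called higher, 272 (11.7%) had a larger log2 fold change, and the median of those called was 1.30. GA2ox9 was called in all 14 alternative fits in which it was tested, with log2 fold changes of 3.02 to 4.20 when a library was left out. In limma on log2(FPKM + 1) the log2 fold change was 1.47, with and without the filter, and on log2(FPKM + 0.1) it was 3.16. The size of the change thus depends on how the low WT values are treated. A filter asking for 10 reads in every library removed it, since its WT libraries were under that number.

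GA2ox3 (OS01G0757200), a 2-oxidase of the group that acts on gibberellins with the shorter carbon skeleton, had 33, 17 and 17 reads in OsRUS1-OX, against 13, 52 and 42 reads in WT. In FPKM, OsRUS1-OX libraries had 1.41, 0.816 and 0.719, against 0.849, 2.53 and 2.22 in WT libraries. WT replicate 1 fell within the OsRUS1-OX range and the other WT libraries lay above it. The log2 fold change was -1.003 (SE 0.45, 95% interval -2.03 to 0.03) and was not called (edgeR adjusted p = 0.147). The adjusted p was 0.0508 in the edgeR fit without WT replicate 1, and no alternative fit called the gene.

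GA2ox6 (OS04G0522500), of the same substrate group as GA2ox9, and GA2ox1 (OS05G0158600), of the same group as GA2ox3, had too few reads for the test. GA2ox6 had 5 reads in each OsRUS1-OX library, against 5, 23 and 9 reads in WT libraries. In FPKM it was 0.264, 0.295 and 0.260 in OsRUS1-OX and 0.402, 1.38 and 0.586 in WT, so the ranges did not overlap and OsRUS1-OX was the lower. With no filter on low counts its log2 fold change was -1.58 and was not called (edgeR adjusted p = 0.0858). GA2ox1 had 5, 7 and 1 reads in OsRUS1-OX libraries and 4, 2 and 2 in WT libraries, with overlapping ranges (log2 fold change 0.33 without the filter, edgeR adjusted p = 0.837).

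Within these 4 inactivation genes, the make-up of the transcripts differed between the genotypes. GA2ox9 made up 54.5, 66.2 and 71.0% of the summed FPKM of the 4 genes in OsRUS1-OX libraries, against 3.83, 3.85 and 11.96% in WT libraries. GA2ox3 made up 37.0, 22.8 and 21.0% in OsRUS1-OX libraries, against 61.5, 61.8 and 68.9% in WT libraries. GA2ox9 was thus the most abundant of the 4 in every OsRUS1-OX library and GA2ox3 in every WT library. The sum itself overlapped, with 3.83, 3.58 and 3.42 FPKM in OsRUS1-OX and 1.38, 4.10 and 3.22 FPKM in WT. These shares are a description of the same reads as above and were given no test. They are parts of the same sum, so a larger GA2ox9 share by itself lowers the GA2ox3 share. The FPKM of GA2ox3 overlapped between the genotypes, and the gene was not called. In WT replicate 1 the GA2ox9 share rests on 1 read. The shares and the sum leave out OS07G0103500, a further listed gene described as similar to Arabidopsis GA2OX8. It had 0.867, 1.07 and 1.07 FPKM in OsRUS1-OX libraries and 0.0660, 0 and 0 FPKM in WT libraries.

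**Figure D2:**
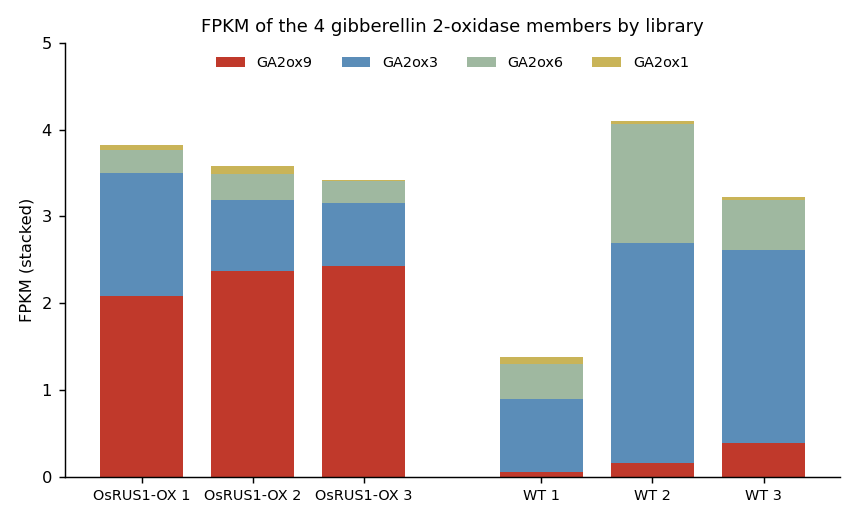
Stacked FPKM (linear axis from 0) of the 4 GA2ox genes in each library, OsRUS1-OX on the left and WT on the right. The GA2ox9 block reaches 2.08 to 2.43 FPKM in OsRUS1-OX and 0.0529 to 0.386 FPKM in WT, while the total height overlaps between the genotypes.

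In the signalling pair, GID1 was higher in OsRUS1-OX and SLR1 did not pass the test. GID1 (OS05G0407500), the soluble gibberellin receptor, had 2206, 2034 and 2365 reads in OsRUS1-OX libraries, against 686, 1451 and 1202 reads in WT libraries. Its FPKM was 76.7, 79.2 and 81.1 in OsRUS1-OX and 36.3, 57.3 and 51.5 in WT. All OsRUS1-OX libraries lay above all WT libraries, and WT replicate 1 was the lowest. The means were 79.0 ± 2.2 FPKM in OsRUS1-OX and 48.4 ± 10.8 FPKM in WT (SD, n = 3 each). The log2 fold change was 0.64 (SE 0.17, 95% interval 0.25 to 1.02, 1.55-fold, edgeR adjusted p = 0.0295), and 2002 of the 2328 features called higher (86.0%) had a larger one. The call was not stable to the loss of a library. It was lost without OsRUS1-OX replicate 2 (edgeR adjusted p = 0.0875), OsRUS1-OX replicate 3 (0.1004), WT replicate 1 (0.0553) and WT replicate 3 (0.0682), and held at 0.04997 without OsRUS1-OX replicate 1 and at 0.00936 without WT replicate 2. The direction held in all 15 alternative fits, with log2 fold changes of 0.48 to 0.80, and 10 of them called it.

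SLR1 (OS03G0707600) had 1645, 1490 and 1562 reads in OsRUS1-OX libraries, against 965, 1205 and 959 reads in WT libraries. Its FPKM was 52.8, 53.6 and 49.5 in OsRUS1-OX and 47.2, 44.0 and 38.0 in WT. These FPKM ranges did not overlap, but the TMM-scaled values did. The log2 fold change was 0.20 (SE 0.14, 95% interval -0.12 to 0.51) and was not called (edgeR adjusted p = 0.345), nor was it in any of the 15 alternative fits. SLR1 is regulated through breakdown of its protein, which read counts do not measure. Within a library, the ratio of SLR1 to GID1 FPKM was 0.689, 0.677 and 0.610 in OsRUS1-OX, against 1.30, 0.767 and 0.737 in WT. The ranges of this ratio did not overlap, and WT replicate 1 was the only library in which SLR1 exceeded GID1.

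**Figure D3:**
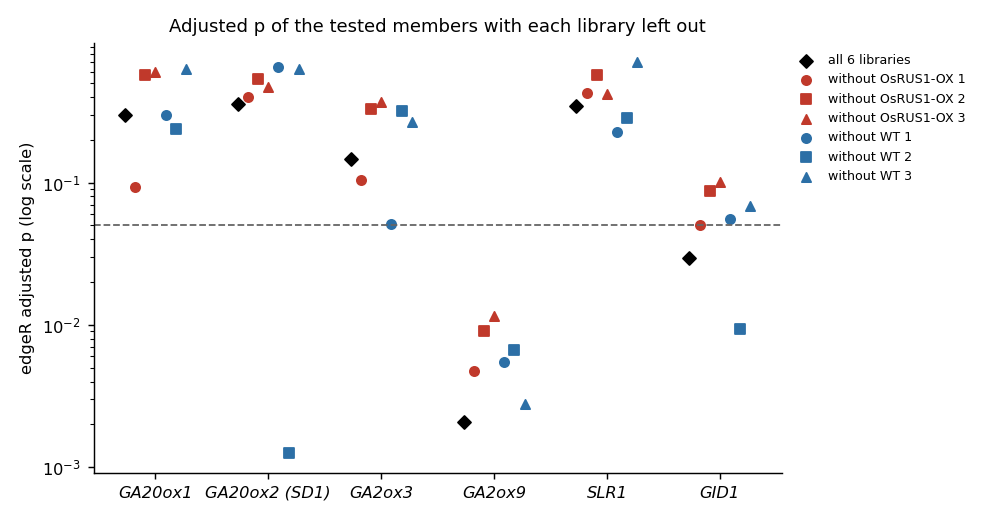
Adjusted p from edgeR (log axis) of the 6 tested genes with all 6 libraries (black) and with each library left out in turn (red, OsRUS1-OX and blue, WT). The dashed line marks 0.05. GA2ox9 stays below it in every fit, GID1 is above it in 4 of the 6 fits, and SD1 falls below it only without WT replicate 2.

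In order of FPKM, the levels in OsRUS1-OX were SD1, GID1, SLR1, GA2ox9, GA20ox1, GA2ox3, GA2ox6, GA2ox1 and GA3ox2. In WT the order was SD1, GID1, SLR1, GA20ox1, GA2ox3, GA2ox6, GA2ox9, GA3ox2 and GA2ox1. SD1, GID1 and SLR1 were well above the other 6 genes in both genotypes, with no overlap between SLR1 and the gene next below it. In OsRUS1-OX the ranges of these 3 genes were separate from each other, whereas in WT neighbours among them overlapped. GA2ox9 overlapped GA20ox1 in OsRUS1-OX, and in WT it overlapped GA3ox2. By mean FPKM, GA2ox9 thus ranked next after SLR1 in OsRUS1-OX, though far lower in level (2.30 against 52.0 FPKM). In WT it ranked below 6 of the other genes.

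A further 17 gibberellin genes were listed by identifier, of which 8 were tested and 3 had no read in any library. Of these 8, 2 were called higher, 2 lower and 4 not at all, with a median log2 fold change of 0.15 and a range of -1.28 to 5.28. Over all tested features 23.6% were called, 11.8% in each direction, and the list was chosen with earlier results of these data known. Together with the 9 genes this made 26 listed, 14 tested, 4 called higher and 2 called lower. Both genes of this list called higher have an annotation that places them among inactivating enzymes, and only 2 of the 6 listed for inactivation were tested. The inactivation genes of the 9 went both ways. GA2ox9 was called higher, and GA2ox1 was not called (log2 fold change 0.33 without the filter). GA2ox3 (-1.003) and GA2ox6 (-1.58 without the filter) were lower and not called. The 2 genes called lower were listed under the early steps of synthesis. Of the 3 tested genes listed there, the remaining one, OS06G0110000, was higher without overlap but not called (log2 fold change 0.60, edgeR adjusted p = 0.067).

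OS05G0482400 is annotated as CYP714D1, which is EUI1, the cytochrome P450 that inactivates gibberellins by epoxidation. It had 270, 298 and 304 reads in OsRUS1-OX libraries, against 31, 55 and 67 reads in WT libraries. The genotypes did not overlap and the log2 fold change was 2.16 (SE 0.20, edgeR adjusted p = 0.000666), called in all 15 alternative fits. OS07G0103500, described like GA2ox9 as similar to Arabidopsis GA2OX8, had 20, 22 and 25 reads in OsRUS1-OX libraries, against 1, 0 and 0 reads in WT libraries. The summed 67 reads in OsRUS1-OX and 1 read in WT give a ratio of 54.1, with a 95% counting interval of 9.38 to 2168, which covers counting error only. It was called higher (edgeR adjusted p = 0.00205), and also in each of the 12 alternative fits that tested it. Like GA2ox9, it passed the filter on low counts only through its OsRUS1-OX libraries.

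OS06G0570100, annotated as a cytochrome P450 of diterpenoid biosynthesis, had 42, 31 and 42 reads in OsRUS1-OX libraries, against 59, 70 and 86 reads in WT libraries. The genotypes did not overlap in FPKM or TMM-scaled values, with OsRUS1-OX the lower, and the log2 fold change was -1.28 (SE 0.21, edgeR adjusted p = 0.00468), called in all 15 alternative fits. OS04G0611800 had 363, 279 and 323 reads in OsRUS1-OX libraries, against 297, 377 and 403 reads in WT libraries. Its log2 fold change was -0.54 (SE 0.12, edgeR adjusted p = 0.0139). The call was lost without OsRUS1-OX replicate 2 (edgeR adjusted p = 0.0652) and without OsRUS1-OX replicate 3 (0.0804), and in limma on log2(FPKM + 1) without a filter (0.0629), so that 12 of the 15 alternative fits called it. The 4 tested genes that were not called were OS06G0110000 (log2 fold change 0.60), OS05G0421900 (0.15), OS08G0559300 (0.15) and OS02G0580300 (-0.25).

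**Figure D4:**
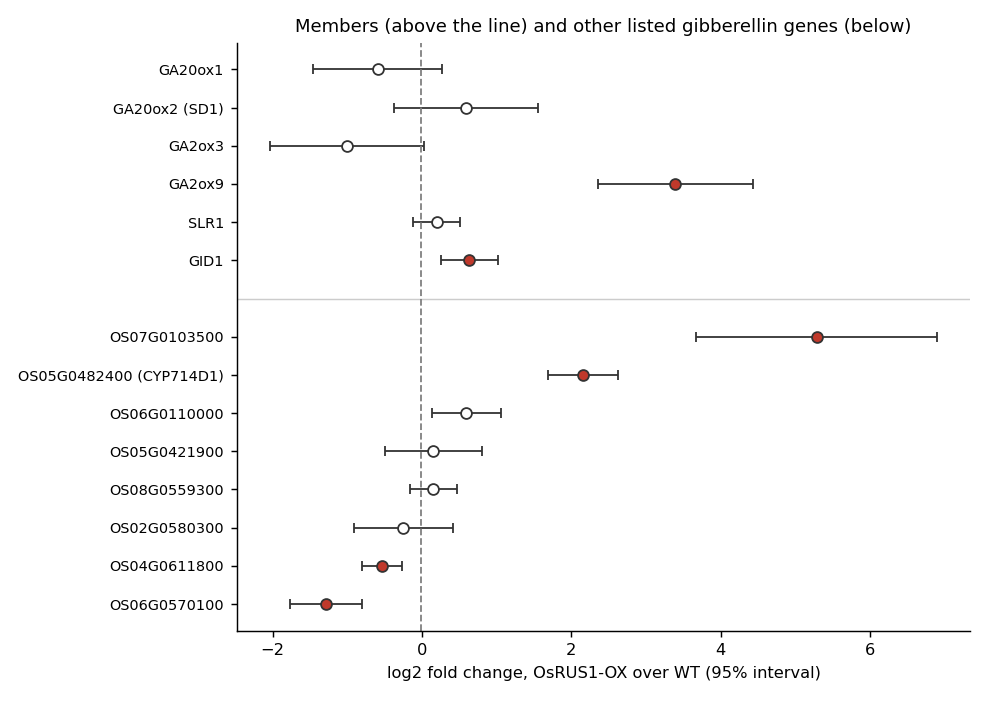
Log2 fold change of OsRUS1-OX over WT with its 95% interval for the 6 tested genes of the 9 (above the grey line) and the 8 tested genes of the further list (below it). Filled points were called and open points were not, and the dashed line is the median of all tested features, -0.01. GA2ox9, OS07G0103500 and OS05G0482400 lie farthest to the right, at 3.39, 5.28 and 2.16.

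GA2ox9 was also set beside other genes by the shape of its profile over the 6 libraries. The measure was the root mean square difference of log2 CPM, each gene centred on its own mean, over 205 tested features with a symbol in the study's table of changed genes and in the RefSeq gene table. The nearest were HOX19 (OS03G0231150, an HD-Zip transcription factor) at 0.43, CSLD5 (OS06G0336500, a cellulose synthase-like protein) at 0.51 and HSP17.9A (OS03G0266300, a small heat shock protein) at 0.51. The median over the 205 features was 1.27. HOX19 had 468, 704 and 645 reads in OsRUS1-OX, against 39, 96 and 109 in WT, and HSP17.9A had 5072, 8188 and 5993 reads in OsRUS1-OX, against 449, 724 and 705 in WT. CSLD5 had 22, 23 and 16 reads in OsRUS1-OX and 0, 0 and 6 in WT. The pool was drawn from a list that the study chose on these libraries, so the likeness is a description only.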

How the data were processed

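Poly(A) RNA of 6 flag leaf libraries was sequenced in pairs. The authors aligned filtered reads to the Ensembl Plants rice genome with TopHat2 2.0.12 and counted reads per gene with HTSeq 0.6.1. The deposited table of counts holds raw whole numbers, and the authors derived the deposited FPKM from these counts with the length of each gene. All 31752 features with reads gave a whole-number length within 0.01 base when FPKM was divided into the counts. How the counter treated strand and overlapping genes is not given in the sources used here, so reads of overlapping or antisense genes could not be told apart. Columns were matched to samples by name, and 0 columns were unused. The columns named as mutant were taken as OsRUS1-OX. The values of the study's own fold changes and p-values were not used, but the pool for the closest profiles came from its list of changed genes, which it chose by adjusted p.

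The genotypes were compared by edgeR 4.0.16 (R 4.3.3) on the counts (TMM, filter on low counts by genotype, quasi-likelihood test, adjusted p under 0.05). Alternatives were other normalizations and filters, DESeq2 1.42.0, limma 3.58.1 on log2(FPKM + 1) or log2(FPKM + 0.1), a replicate block and leaving out each library. On simulated counts for 19694 genes with 200 changed 4-fold, edgeR found 184 of the 197 that passed its filter and made 15 calls among unchanged genes. Smaller changes, such as the 1.55-fold of GID1, were not simulated, so this recovery does not apply to them. The share of changed genes was also far below the 23.6% called in the data. Replicate libraries of a genotype differed by more than sampling noise, so none was counted as a duplicate. The genes named are the 9 genes, the further gibberellin list, and the 3 closest profiles to GA2ox9, the called gene with the largest change among the 9. Genes and lists were chosen with earlier results of these data known. The leaf and other-organ markers and OS04G0290800 are named as checks of the samples. Sequences and coordinates are not analysed here.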

Additional observations from a re-analysis of the deposited data

How the results depend on the processing

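The number of features called was 4644 with all libraries and 2399 to 5219 when each library was left out, lowest without OsRUS1-OX replicates 3 (2399) and 2 (2524). DESeq2 called 5164, and limma on log2(FPKM + 1) called 3895 with the filter and 3276 without it. The share of called features that were higher was 50.1% with TMM, 58.8% with library totals alone and 61.4% with limma without a filter. Of the 9 genes, 2 were called with all libraries and 1 to 3 when each library was left out. A minimum of 10 counts in every library gave 1, since GA2ox9 was no longer tested, and limma on log2(FPKM + 1) without a filter gave 1, since GID1 had an adjusted p of 0.0518. No tested gene of the 9 changed direction in any alternative. Of the further list, 3 or 4 were called in every alternative. The main fit did not pair libraries by replicate number. Deviations from the genotype means correlated across genes at r = 0.125, -0.091 and 0.112 for same-numbered libraries. For differently numbered libraries r was -0.241 to 0.170. These values cannot show whether same-numbered libraries were collected together. The replicate block called 4013 features and the same 2 of the 9 genes. A planned list of gibberellin-regulated proteins was not run, since the reference gene table has no descriptions. GA3ox2, GA2ox1 and GA2ox6 did not pass the filter on low counts, and edgeR without the filter called none of these 3 genes. DESeq2 called neither GA2ox1 nor GA2ox6 and gave GA3ox2 no adjusted p.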
